A study of Mus musculus with 6 samples.

Results

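Of the 3540 genomic intervals named by coordinates and a strand letter on the array, 1067 carried probes with the letter F and probes with the letter R, and these 1067 intervals are described here. They were chosen by their names alone: control spots were left out, and an interval was kept when its coordinates (mm9) occurred with both letters. Together they held 9682 of the 55681 distinct probes. The files do not say what the letters stand for, so F and R are used as names, and each interval gives 2 values, 1 per letter (2134 letters in all). Another 13 probes with coordinates but no letter were not used here.

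The samples were J1 mouse embryonic stem cells, a gelatin-adapted line from the inner cell mass of the strain 129S4/SvJae. Both groups grew on 0.2% gelatin in a serum-replacement medium with 1000 U/ml LIF, the cytokine that sustains self-renewal in culture. The 3 SC1 samples received 1 µM SC1 for 6 h, and the 3 DMSO samples received DMSO as the control for 6 h. SC1 (pluripotin) is a synthetic compound known as an inhibitor of ERK1 and RasGAP. The comparison asked which noncoding transcripts, along with messenger RNAs, change when the compound is added. No label says whether a replicate had its own culture; a p here refers to the variation among these 6 samples, part or all of which may be technical. In bulk RNA, fewer cells making a transcript and less of it per cell cannot be told apart.

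Long noncoding RNAs are transcripts that do not encode protein. Many were first mapped as stretches of chromatin between known genes that carry the histone marks of active promoters and of transcribed gene bodies. Such marks show that a stretch is transcribed but not from which strand, and the strands of 1 locus can give separate transcripts, for example an RNA and its antisense partner or a pair that leaves a shared promoter in opposite directions. Probes for both strands let each be measured on its own. In embryonic stem cells some of these RNAs bind chromatin regulators or act on neighbouring genes.

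All 6 arrays lay on 1 slide, and between 51.6% and 56.1% of the intervals' probes were well above background on an array, against 63.2% to 65.6% of all probes. All 11 ERK output genes examined, genes induced by ERK signalling such as Dusp6, fell with SC1, with log2 changes from -6.85 to -0.23. All 10 embryonic stem cell markers were above background on all 6 arrays, and their summed signal, of which Dppa5a gave the most, was 343000 to 355000 with DMSO and 344000 to 364000 with SC1. Of these markers 4 fell (log2 changes of Utf1 -2.36, Tdgf1 -1.39, Sox2 -0.28 and Zfp42 -0.25) and 2 rose (Fgf4 0.89 and Klf4 0.21). Of 9 embryonic fibroblast markers, 6 were above background, 4 rose and 1 fell, with summed signals of 1180 to 1270 and 999 to 1030. The 7 primitive endoderm markers, of which 3 rose, summed to 510 to 544 and 550 to 615, and the 6 trophoblast markers, of which 2 rose and 2 fell, to 2270 to 2400 and 3160 to 3230. The part of these markers in the results below was not tested. The number of arrays limits the precision.

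The intervals were 5026 to 508115 bases long, with a median of 17901 bases, and the 2473 intervals with only 1 letter had a median of 2176 bases. Chromosome 1 held 83 of them and chromosome X 25. A letter was covered by 1 to 10 probes, with a median of 5 for each letter, and 327 intervals had 5 probes for each. The sequences of the probes are not in the files used here, so neither their place within an interval nor their sequence is given.

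Most intervals gave a signal with both letters. With DMSO, 732 of the 1067 intervals (68.6%) had at least 1 probe of each letter well above background on all 3 arrays, 123 had this for F alone, 147 for R alone and 65 for neither. With SC1 the numbers were 693, 139, 165 and 70. Both letters were measured on all 6 arrays for 679 intervals (63.6%).

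A letter's value is the mean processed signal of its probes, scaled so that the 75th percentile of each array is 500. The lowest value of a probe flagged above background was 8.26 to 10.4 on this scale. The intervals were dim: the median signal of the 1755 tested letters was 40.9, against 489 for genes and 38.0 for the letters of intervals with 1 letter.

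Signals of the letters of 1 interval were far apart. Among the 679 intervals measured on both, the median absolute log2 ratio of F to R with DMSO was 2.07, F was brighter in 310 and R in 369, and the ratio was at least 4-fold in 345 and under 2-fold in 182. The correlation between the log2 signals of the letters was 0.12 over these 679 intervals, which share arrays and differ in probes. Within 1 letter the probes themselves spread as widely, with a median range of 4.57 and a median SD of 1.85 on the log2 scale over 1259 letters with several probes. A level of F against R thus compares different probes and was not tested. The change with SC1 compares the same probes between samples and was tested.

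**Figure D1:**
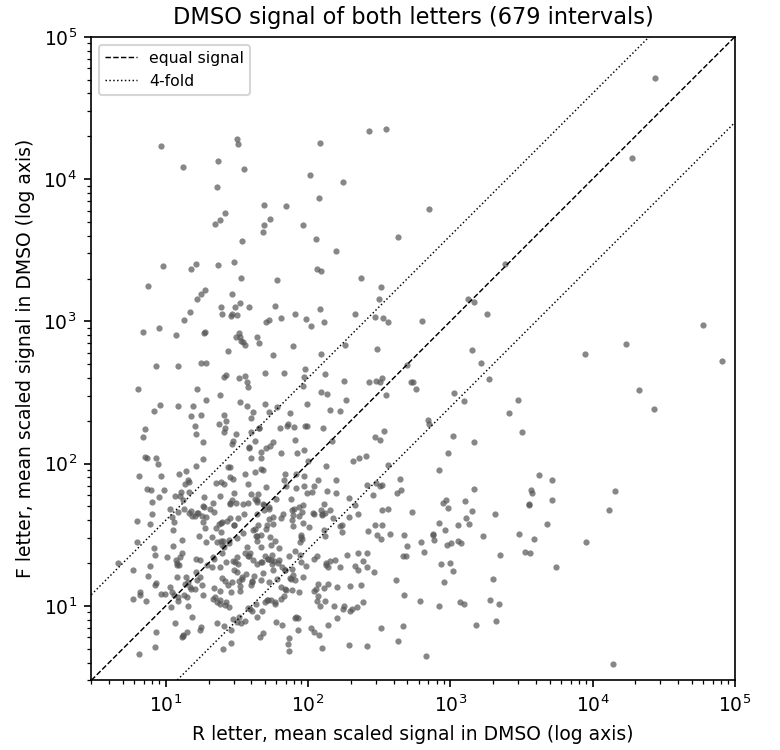
Mean scaled signal with DMSO of the F letter (vertical, log axis) against the R letter (horizontal, log axis), 1 point for each of 679 intervals with both letters measured on all 6 arrays. The points do not follow the dashed line of equal signal (correlation 0.12), and 345 lie at or beyond the dotted 4-fold lines.

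SC1 changed the signal of 476 interval letters, of which 229 rose and 247 fell. These were 27.1% of the 1755 letters tested with limma (adjusted p under 0.05 over all 25416 genes and interval letters). Over all features tested, 39.3% were called (18.6% higher and 20.7% lower), and over genes alone 41% (19.3% higher and 21.7% lower). For the both-letter intervals the shares were 13% higher and 14.1% lower, and 29.3% of the letters of one-letter intervals were called (14.7% higher and 14.5% lower). The SC1 and DMSO arrays did not overlap for 699 letters (39.8%), against 52.7% of all features, 54.7% of genes and 40.1% of the letters of one-letter intervals. The median log2 change was 0.023 over the tested letters and -0.005 over all features. Of the 1755 letters, 12 rose and 30 fell by at least 2-fold, against 559 and 483 of all 25416 features.

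The remaining 379 of the 2134 letters had no probe above background on all arrays of a group and were not tested. Of the F letters 87 rose and 105 fell among 866, and of the R letters 142 rose and 142 fell among 889. The balance of directions changed with the processing. Increases made up 48.1% of the called letters, but 37.4% with scaling to spike-in controls (96 higher, 161 lower) and 84.5% with normexp, a model of the background (746 higher, 137 lower). With normexp 50.3% of the letters and 50.6% of all features were called, so the lower share of the letters was not seen with it.

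The share called varied with brightness. In the dimmest quintile of all features, 20.8% of 798 both-letter values, 20.7% of 799 one-letter values and 27.2% of 3487 genes were called. In the third quintile the shares were 36.2% of 243, 43.2% of 250 and 50.2% of 4590. In the fourth they were 29.7% of 128, 40.8% of 76 and 48.7% of 4879. The dimmest quintile held more of the both-letter values than any other, and within each of the 5 quintiles their share was below that of genes. These shares are those without normexp and were not tested against each other.

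**Figure D2:**
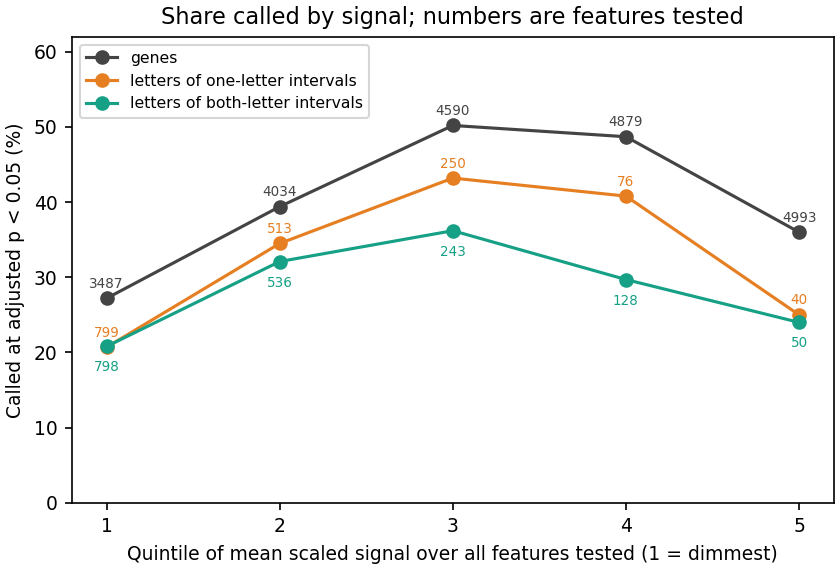
Percent of features called (vertical) in each quintile of mean scaled signal over all 25416 features (horizontal, 1 is the dimmest), for genes, letters of one-letter intervals and letters of both-letter intervals; small numbers are features tested. Both-letter values run from 20.8% in the dimmest quintile to 36.2% in the third and lie below genes throughout.

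The strongest rises on a single letter were about 2-fold to 3-fold, in 5 intervals named here by number: L9, L10, L4, L11 and L12. The F letter of L9 (chr6:31233512-31241062) had signals of 17.6, 24.1 and 14.5 with DMSO and 55.8, 59.0 and 60.9 with SC1. All SC1 arrays were above all DMSO arrays, and the change was 3.19-fold (log2 1.67, SE 0.181, adjusted p = 0.000969). It rested on 1 of 2 probes measured on every array, and the R letter of L9 was above background on only 2 arrays of each group and was not tested.

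The R letter of L10 (chr12:111617728-111665403) read 18.2, 16.7 and 17.9 with DMSO and 50.8, 53.5 and 58.8 with SC1. It rose 3.08-fold (SE of log2 0.0691, adjusted p = 3.76e-05), and 4 of its 5 probes were measured on every array and rose by 1.52 to 1.69 on the log2 scale. Its F letter rose by 0.46 (adjusted p = 0.0413), a call lost under 15 settings, among them each of 5 of the 6 arrays left out. These were the 3 DMSO arrays and SC1 replicates 1 and 2, with adjusted p from 0.0683 to 0.122.

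The R letter of L4 (chr14:14688472-14747272) read 34.4, 29.4 and 34.6 with DMSO and 94.8, 88.2 and 94.1 with SC1. All 5 of its probes rose, by 1.31 to 1.62 on the log2 scale, and the letter rose 2.82-fold (adjusted p = 6.61e-05). The R letter of L11 (chr5:110891642-110918642) went from 11.7, 14.0 and 12.5 to 30.9, 32.1 and 28.4, a 2.40-fold rise (adjusted p = 0.000151). Of its 5 probes, 2 were measured on every array and rose by 0.34 and 1.57 on the log2 scale. The F letter of L12 (chr1:13058312-13099826) went from 119, 134 and 125 to 303, 294 and 305, a 2.39-fold rise on all 5 probes (adjusted p = 4.02e-05). In each of these 3 the groups lay well apart.

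Among the strongest falls, the R letter of L1 (chr15:61919018-61935580) read 38.5, 39.3 and 45.4 with DMSO and 7.51, 7.88 and 7.63 with SC1. The SC1 values lay under the lowest probe value flagged above background on those arrays (8.49, 10.4 and 9.62), since the letter is a mean over 5 probes of which 1 was measured on all 6 arrays. That probe changed by -2.22 on the log2 scale. The fitted change of the letter (log2 -2.42, SE 0.0723, adjusted p = 1.28e-05) rests in part on probes not above background with SC1, so its exact size is not known. Of the 2 F probes of L13 (chr16:13752215-13764390), 1 was measured on all 6 arrays. The F letter of L13 fell 5.15-fold, from 72.9, 77.7 and 72.5 to 15.0, 13.2 and 15.2 (adjusted p = 1.23e-05). Its R letter, dim on all arrays, read 12.8, 12.1 and 9.19 and then 6.10, 6.29 and 3.34 (log2 -1.16, adjusted p = 0.0186); the call was lost without DMSO replicate 1 or 2 (adjusted p = 0.0642 and 0.061).

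The F letter of L2 (chr15:102100397-102105872) fell 3.79-fold, from 189, 173 and 175 to 48.1, 45.5 and 47.9 (log2 -1.92, SE 0.0521, adjusted p = 1.05e-05), and all 3 probes fell, by 1.69 to 2.11. The R letter of L14 (chr8:37582187-37621987) fell 3.44-fold, from 66.9, 69.7 and 76.8 to 22.1, 22.7 and 17.6 (adjusted p = 0.000133). Of the 2 F probes of L7 (chr12:110870903-110891628), 1 was measured on all 6 arrays. The F letter of L7 fell 3.44-fold as well, from 44.2, 47.1 and 46.5 to 12.1, 15.8 and 12.5 (adjusted p = 0.000112). In all of them the groups did not overlap. Normexp adds an offset of 50 to each signal and so shrinks the changes of dim letters: with it the log2 change of L1 was -0.43, of L13 -0.84, of L14 -0.55 and of L7 -0.42, all still called except the R letter of L13 (0.07, adjusted p = 0.187).

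A few letters were above background in 1 group only. They were 9 letters seen with DMSO and 1 with SC1, on all arrays of the group, and for these a lower bound was made by setting each array without detection to its own lowest value flagged above background, where that was higher. The bound was a fold above 1 for 5 of the 10 letters. For the other 5 it was 0.459 to 0.82, so no fold is given, and 4 of those were not called. All 10 letters entered the test only through the group in which they were seen. Those named here were picked for that same split, so their adjusted p is no separate support for a change. Both letters of L25 (chr3:35590823-35631823), with 1 probe each, were lost with SC1. F read 19.7, 17.2 and 21.6 with DMSO and 2.32, 7.16 and 6.06 with SC1, at least 2.05-fold lower (adjusted p of the fitted change 0.0111). R read 14.7, 12.8 and 15.7 and then 2.29, 4.16 and 8.24, at least 1.51-fold lower (adjusted p = 0.0239). The R call was lost without any 1 of the 3 DMSO arrays or SC1 replicate 2 (adjusted p 0.0576 to 0.0731), and both calls of L25 were lost with normexp (adjusted p = 0.202 and 0.435).

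The R letter of L26 (chr6:3333825-3349525) fell at least 1.40-fold, from 14.5, 12.9 and 12.4 to 4.53, 4.42 and 8.56 (adjusted p = 0.0122, and 0.792 with normexp). The F letter of L27 (chr2:168606645-168621395) was the 1 that appeared with SC1, rising at least 1.58-fold from 8.78, 6.13 and 5.07 to 11.8, 13.5 and 14.9 (adjusted p = 0.0103). This call was lost with slide column (adjusted p = 0.0772) or slide row (0.106) as a block. The row block rests on SC1 replicate 1 against the DMSO arrays, the contrast within slide row 1 (log2 change 0.87 in both). The R letter of L27, at 132, 135 and 137 with DMSO and 162, 139 and 138 with SC1, did not pass (adjusted p = 0.266).

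Probes of a called letter mostly moved together. Of 455 called letters measured on all 6 arrays, 353 had at least 2 such probes, and in 269 of these (76.2%) each probe moved in the direction of the letter. In 17 no more than 50% of the probes did. Since the mean was taken over probes, a bright probe weighs more than a dim one. The direction of a letter comes from these same probes and only called letters were counted, so part of this agreement is built in.

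Both letters were tested in 745 intervals. Of these, 407 had neither letter called, 269 had 1 letter called and 69 had both called. Where both were called they moved the same way in 60 intervals, 21 of them higher and 39 lower, and in opposite directions in 9. The log2 changes of the letters had a correlation of 0.38 over the 745 intervals, whose letters share arrays and scaling.

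A letter called beside one not called does not show that they differ, so the difference itself was tested. For each array the log2 signal of R was subtracted from that of F, and SC1 was compared with DMSO on these differences. The scaling of an array cancels in them. The letters changed unequally in 104 of the 679 intervals measured on both (15.3% of those tested, limma, adjusted p under 0.05; 189 at an unadjusted p under 0.05). The change was more positive on F in 48 (7.07%) and on R in 56 (8.25%), and the arrays of the groups did not overlap in 236 (34.8%). The size was at least 2-fold in 20 and under 1.5-fold in 48, with a median of 0.60 on the log2 scale, against 0.16 over all 679. Of the 251 intervals tested for the difference with 1 letter called, the difference was called in 80, and of the 8 tested with opposite calls, in all 8. Opposite calls on the same arrays nearly fix that outcome, so it is no separate support. It was also called in 15 of 49 intervals whose letters moved the same way. The letter that changed more was the brighter one with DMSO in 58 of the 104, and in 277 of the 575 intervals with no call.

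**Figure D3:**
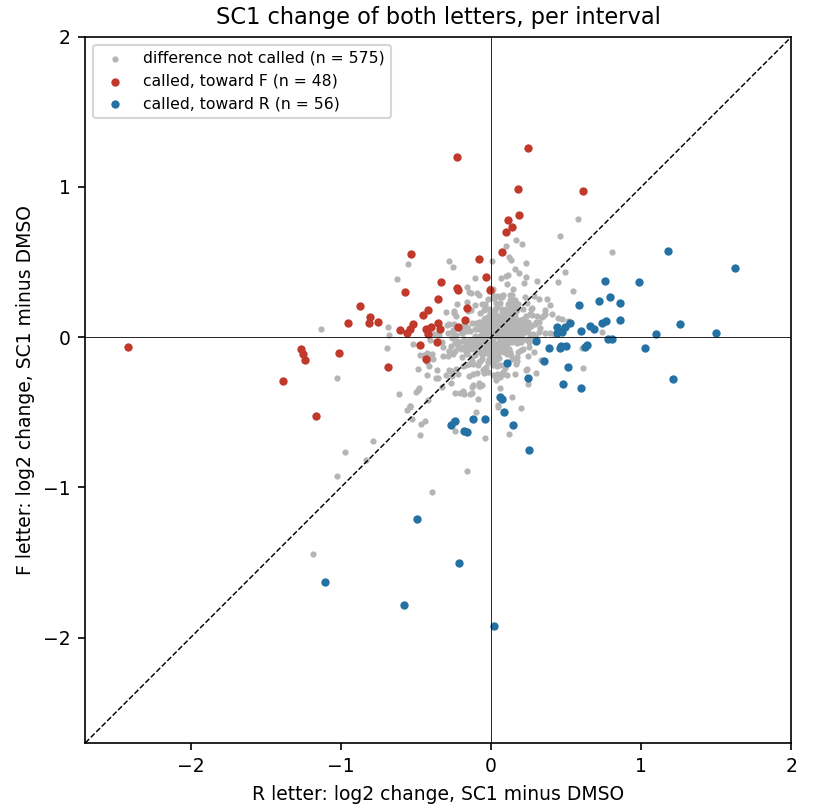
Log2 change with SC1 of the F letter (vertical) against the R letter (horizontal), 1 point for each of 679 intervals; red and blue points are the 104 intervals whose letters changed unequally (48 toward F, 56 toward R), and the dashed line marks equal change. Red and blue points often lie near an axis, where only 1 letter moved, and the point farthest left is L1.

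The largest unequal changes were those of L1 to L8. In L1 the R letter fell as given above, while F read 21.9, 22.0 and 19.7 with DMSO and 18.1, 24.7 and 18.5 with SC1. The fitted difference between the letters changed by 2.35 on the log2 scale (SE 0.152, adjusted p = 0.000434), and the limit given above on the size for R holds for it too. In L2 the F letter fell to a signal near that of R, which comes from other probes. R read 47.2, 43.1 and 45.8 and then 45.9, 46.7 and 45.6. For R, 1 probe gave 92.4% of the signal, and 1 of 5 probes was measured on all 6 arrays. The log2 ratio of F to R went from 1.93 to 2.00 on the DMSO arrays to -0.04 to 0.07 on the SC1 arrays, a change of -1.95 (SE 0.0744, adjusted p = 4.07e-05).

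In L3 (chr7:114369337-114407862) the R letter rose 2.31-fold, from 60.7, 58.6 and 67.3 to 149, 137 and 145 (adjusted p = 8.34e-05), on all 4 measured probes (1.16 to 1.30). F read 20.9, 21.3 and 20.6 and then 18.9, 18.0 and 15.1 and did not pass (adjusted p = 0.051), though it did without SC1 replicate 1 or 3 (adjusted p = 0.0364 and 0.0492). The letters thus moved apart by 1.49 on the log2 scale, with a value of -1.49 for F minus R (SE 0.121, adjusted p = 0.000788). In L4, where R rose, F did not pass (adjusted p = 0.721), at 406, 399 and 398 with DMSO and 427, 388 and 409 with SC1 (F minus R -1.47, SE 0.0885, adjusted p = 0.000399). One probe gave 99.2% of the signal of F in L4.

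In L5 (chr1:92412246-92423471) the F letter rose and R did not pass. F went from 74.6, 72.6 and 73.0 to 171, 173 and 160, a 2.29-fold rise (adjusted p = 2.65e-05), while R read 20.2, 23.4 and 24.3 and then 21.6, 20.6 and 16.2 (adjusted p = 0.221). The change of F minus R was 1.42 (SE 0.123, adjusted p = 0.000813). In L8 (chr14:55671783-55680316) the R letter fell 2.40-fold, from 145, 128 and 126 to 57.1, 54.8 and 54.2, and F read 95.8, 91.9 and 99.5 and then 91.3, 90.4 and 90.2 (adjusted p = 0.217). F minus R changed by 1.19 in L8 (adjusted p = 0.000788), and by 0.35 when log2 signals of the probes were averaged instead (adjusted p = 0.122).

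L6 (chr12:110896603-110940553) and L7 lie next to each other. In L6 the F letter fell 2.83-fold, from 88.9, 97.1 and 102 to 31.6, 43.3 and 28.4 (adjusted p = 0.000934), and R, at 15.8, 16.3 and 17.2 and then 15.8, 13.6 and 13.1, did not pass (adjusted p = 0.0854; 0.018 without SC1 replicate 1). In L7 both fell, F by 3.44-fold and R by 1.49-fold, R from 90.4, 90.8 and 91.6 to 61.2, 59.5 and 62.2. The fall was larger on F in both intervals, with F minus R at -1.29 in L6 (adjusted p = 0.00454) and -1.20 in L7 (adjusted p = 0.00156). The measured probes of R in L7 disagreed, with log2 changes of -1.81 and 0.20.

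Normexp moved the differences of L1 to L8 toward 0 by over 1.5-fold, to 0.57 in L1, -1.21 in L2, -0.72 in L3, -0.76 in L4, 0.70 in L5, -0.67 in L6, -0.15 in L7 and 0.67 in L8, and all stayed called. With the brightest probe alone the difference was 2.15 in L5 and -1.98 in L7.

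**Figure D4:**
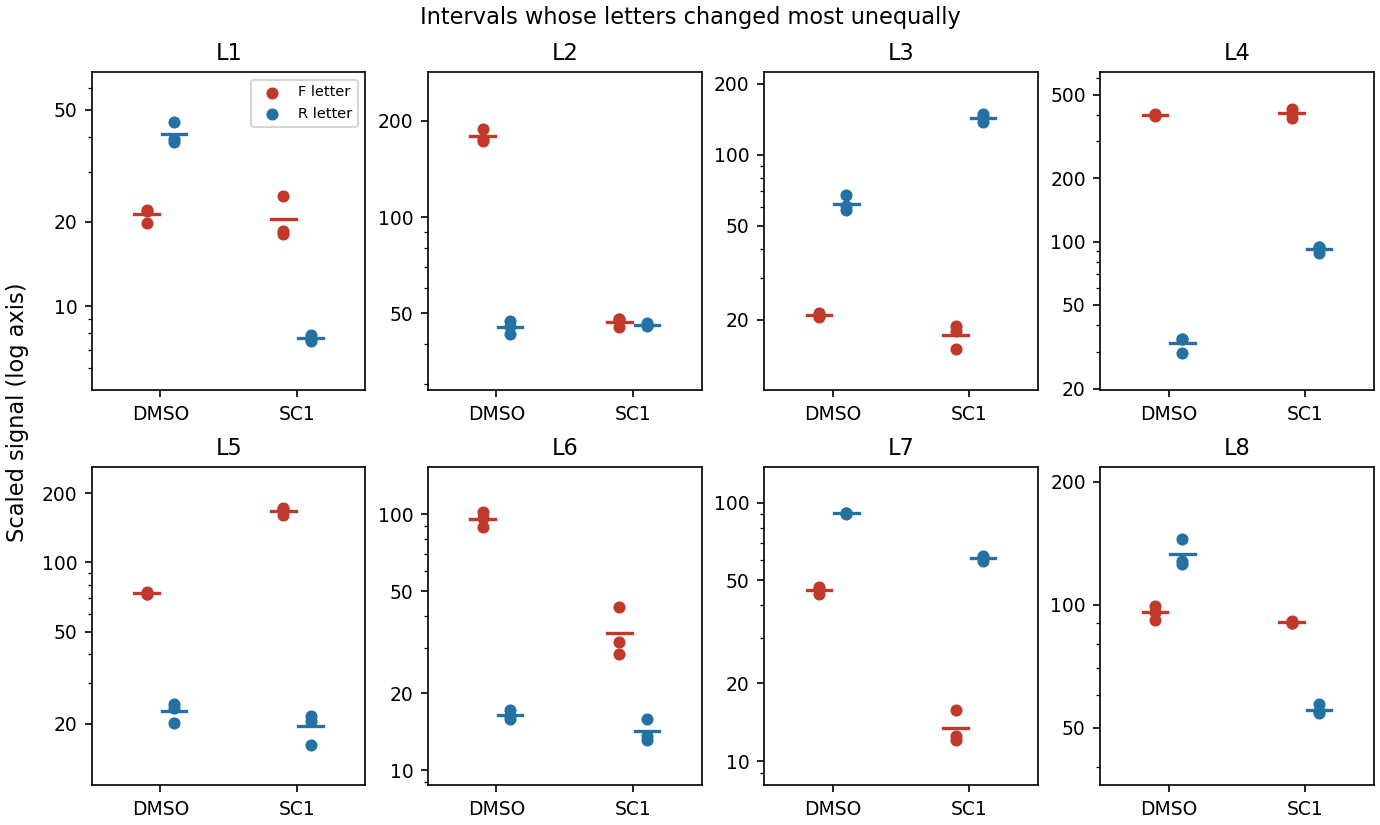
Scaled signal (log axis) of the F letter (red) and the R letter (blue) on the 3 DMSO and 3 SC1 arrays for intervals L1 to L8; each point is an array and each bar the mean of 3. In each panel 1 letter moves by more than the other, as in L2, where F falls to a signal near that of R.

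Of the 9 intervals whose letters were called in opposite directions, the 4 with the largest changes on the weaker side are L15 to L18. They were picked for opposite calls on these arrays, so the adjusted p of their F minus R change is no separate support. In L15 (chr5:92548501-92566401) F rose 1.47-fold, from 43.4, 52.9 and 47.7 to 67.7, 71.4 and 71.7, and R fell 1.45-fold, from 12.8, 12.9 and 14.6 to 10.6, 9.33 and 7.99 (F minus R 1.09, SE 0.152, adjusted p = 0.005). Of the 6 probes of R in L15, 1 was measured on all 6 arrays, and it changed by -0.10 on the log2 scale. On SC1 replicates 2 and 3 this R letter lay under the lowest probe value flagged above background (10.4 and 9.62). The exact size of its fall is thus not known. In L16 (chr2:155269145-155303251) the letters started at like signals from different probes, with F at 154, 135 and 145 and R at 153, 134 and 154. With SC1 F fell to 119, 114 and 109 and R rose to 227, 214 and 227 (F minus R -0.94, SE 0.0804, adjusted p = 0.000813). All 4 measured probes of R in L16 rose, but the 7 of F disagreed (log2 -0.46 to 0.23), and 5 of them fell. When log2 signals of the probes were averaged, the change of F was -0.12 and did not pass (adjusted p = 0.283). The F call was also lost with slide column as a block (adjusted p = 0.0657). No array of 1 group overlapped the other on either letter in L15 or L16.

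In L17 (chr11:55315017-55322092) F rose 1.29-fold, from 48.6, 47.7 and 46.4 to 59.3, 59.7 and 65.3, and R fell 1.26-fold, from 131, 123 and 117 to 103, 95.7 and 95.8. In L18 (chr13:98221098-98480773) F, with 1 probe, read 39.8, 39.3 and 36.2 and then 53.7, 46.2 and 42.8, and R fell 1.49-fold, from 26.9, 24.0 and 22.5 to 16.3, 16.1 and 16.9. The difference between the letters was called in both, at 0.70 in L17 (adjusted p = 0.00395) and 0.88 in L18 (adjusted p = 0.00395). One probe gave 93.9% of the signal of F in L17. When log2 signals of the probes were averaged instead, the difference in L17 was 0.49 and did not pass (adjusted p = 0.0766). Neither letter of L17 passed then (adjusted p = 0.178 for each).

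The single calls were less firm. That of F in L18 (adjusted p = 0.0443) was lost without any of 5 arrays, namely the 3 DMSO arrays and SC1 replicates 1 and 2 (adjusted p 0.0724 to 0.128), and with spike-in scaling (adjusted p = 0.277). With spike-in scaling both letters of L17 (adjusted p = 0.138 and 0.0873) and F of L16 (adjusted p = 0.0742) also missed the threshold, and R of L15 and L18 were lost with normexp (0.04 and -0.01, adjusted p = 0.43 and 0.818). The number of intervals with opposite calls was 9, but 34 with normexp and 2 with spike-in scaling. It was 0 with slide column as a block and with the arrays of slide row 1, 1 with slide row as a block, and 3 at an adjusted p under 0.01. It was 5 without SC1 replicate 2, with the replicate block and with an intensity trend, and 5 to 9 over the 6 arrays left out in turn.

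Among intervals with both letters measured on all 6 arrays and both higher, the first by the letter that changed less were L19, L20 and L21. In L19 (chr7:30645026-30667034) F rose 1.97-fold, from 77.8, 70.0 and 67.2 to 133, 155 and 136 (adjusted p = 4e-04), and R 1.53-fold, from 25.5, 27.7 and 23.5 to 37.0, 41.3 and 39.0 (adjusted p = 0.00162). F of L19 had 1 probe, and 2 of the 9 probes of R were measured on all 6 arrays. When log2 signals of the probes were averaged, R of L19 rose by 0.30 and did not pass (adjusted p = 0.128). In L20 (chr9:39982939-39992189) F rose 1.73-fold, from 38.5, 38.2 and 39.1 to 63.6, 72.1 and 64.6 (adjusted p = 0.000236), and R read 11.1, 10.2 and 12.9 and then 20.0, 17.8 and 13.7 (adjusted p = 0.0309). In L21 (chr2:153163620-153170845) R rose 2.27-fold on all 8 measured probes, from 40.4, 45.9 and 42.2 to 96.0, 107 and 88.6, and F 1.49-fold, from 29.8, 31.4 and 31.2 to 45.6, 46.1 and 45.6 (adjusted p = 0.000202). The letters differed in their change in L19 and L21, by 0.36 (adjusted p = 0.0458) and -0.61 (adjusted p = 0.00667). In L20 the difference was 0.21 (95% interval -0.17 to 0.59).

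The call of the R letter of L20 was lost without DMSO replicate 1 or 2 or SC1 replicate 1 or 2 (adjusted p 0.0781 to 0.0937), and its F letter had a log2 change of 2.98 in the authors' deposited matrix (adjusted p = 0.255). The difference in L19 was lost without any 1 of the 6 arrays (adjusted p 0.0516 to 0.136).

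Among intervals with both letters measured on all 6 arrays and both lower, ranked by the letter that changed less, the first were L22, L23 and L24. Both letters of L13 and L25, given above, were also called lower, but R of L13 and both letters of L25 were not measured on all 6 arrays. In L22 (chr12:110944403-110988678) F fell 2.72-fold, from 285, 260 and 272 to 106, 102 and 93.1, and R 2.27-fold, from 36.5, 30.3 and 33.0 to 16.5, 13.1 and 14.5. The F letter fell on all 7 measured probes (log2 -2.17 to -0.60), and R on 3 of 4 (-2.41 to 0.25); with its brightest probe alone R read 0.25 (adjusted p = 0.297). In L23 (chr6:52046805-52072744) F fell 3.10-fold, from 738, 707 and 732 to 237, 248 and 219 (adjusted p = 2.08e-05), and R 2.15-fold, from 36.6, 30.1 and 35.5 to 14.7, 18.5 and 14.5. All 5 measured probes of F and all 4 of R fell.

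In L24 (chr4:146965675-146979325) both letters fell, with no difference called between them. F fell 1.90-fold, from 576, 574 and 606 to 310, 318 and 296, and R 2.03-fold, from 123, 119 and 128 to 59.8, 65.8 and 56.6, on both probes of each letter. F minus R changed by 0.10 (95% interval -0.08 to 0.27, adjusted p = 0.448), and by -0.23 with normexp (adjusted p = 0.0078). In L22 the difference was -0.26 (95% interval -0.51 to -0.01, adjusted p = 0.163), and in L23 it was -0.53 (adjusted p = 0.0167). The call in L23 was lost without DMSO replicate 2 or SC1 replicate 2 (adjusted p = 0.0545 and 0.053). The difference in L22 was -0.85 with the brightest probe and -0.81 with normexp, and passed with both (adjusted p = 0.0103 and 6.61e-06). The normexp offset shrinks the change of the dimmer R letter more than that of F. With it R read -0.21 in L22 (against -1.18) and -0.55 in L24 (against -1.02). A difference can arise from this alone, so the normexp values of L22 and L24 are no support for unequal change.

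**Figure D5:**
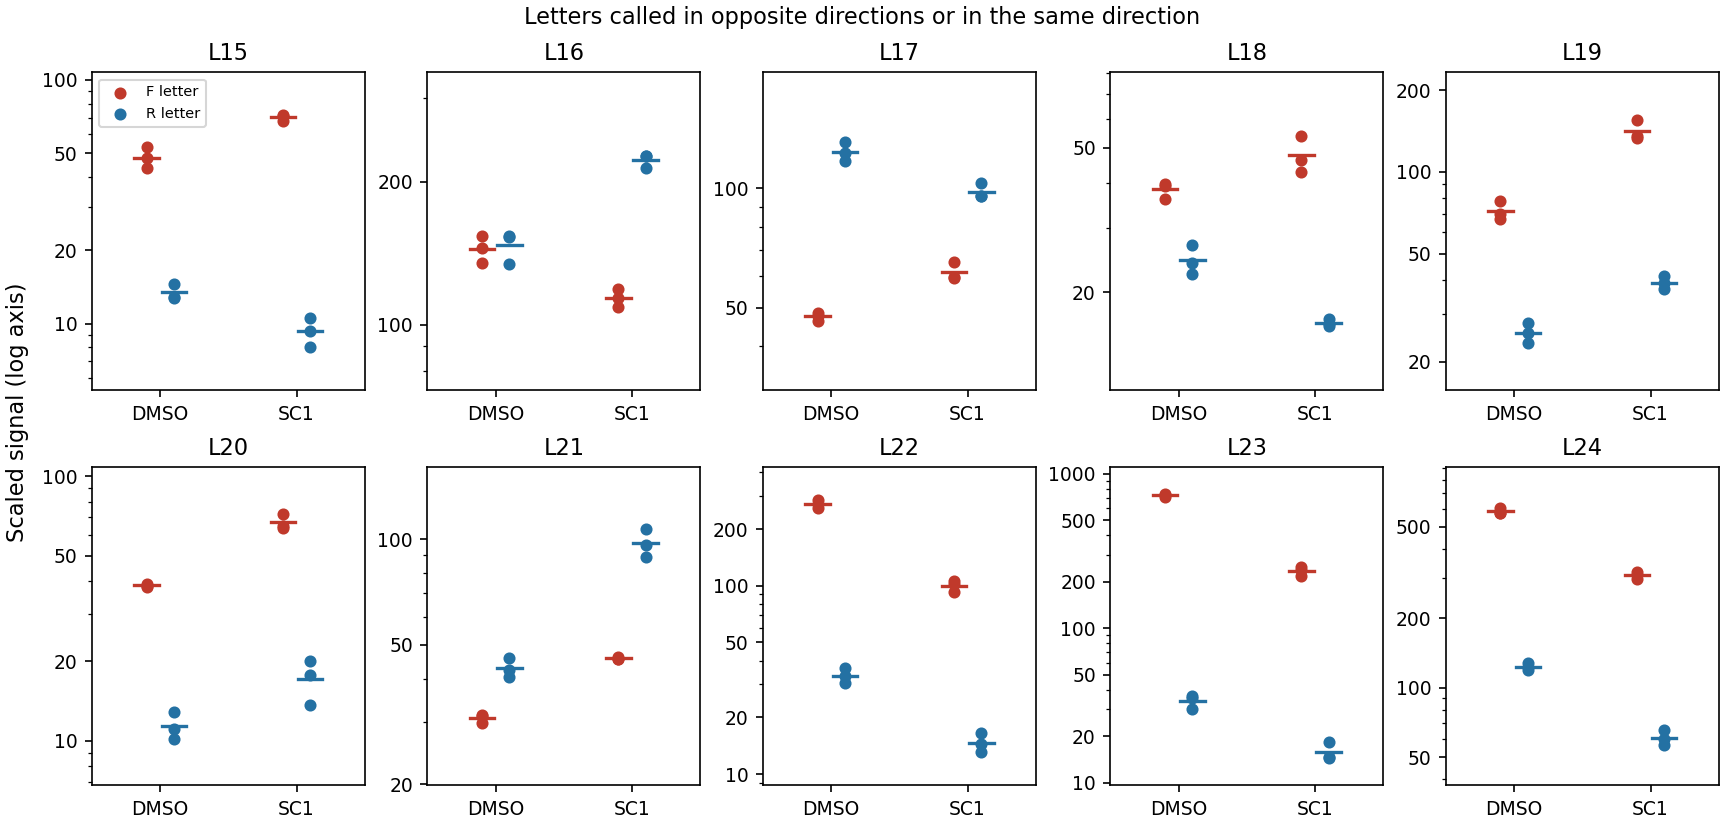
Scaled signal (log axis) of the F letter (red) and the R letter (blue) on the 3 DMSO and 3 SC1 arrays, for intervals with opposite calls (L15 to L18), both letters higher (L19 to L21) and both lower (L22 to L24); points are arrays and bars means of 3. In L16 the letters start at like signals with DMSO and separate with SC1, and in L24 they fall in parallel.

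The brightest intervals, ranked by the dimmer letter with DMSO, were L28, L29 and L30. In L28 (chr17:39960567-39992817) F read 51500, 51600 and 49900 with DMSO and 51800, 58300 and 55900 with SC1, and R read 28100, 27400 and 27200 and then 24100, 24900 and 24500. R fell 1.13-fold (adjusted p = 0.016) and F did not pass (adjusted p = 0.15). The R call was lost with quantile normalization (adjusted p = 0.13) and without DMSO replicate 1, SC1 replicate 1 or SC1 replicate 3 (adjusted p 0.0502 to 0.0558), and the difference of 0.29 (adjusted p = 0.044) was lost without any 1 of the 6 arrays. In L29 (chr12:73838608-73862621) F read 13200, 15200 and 14100 and then 14600, 15700 and 15700, and R read 17800, 20000 and 18900 and then 18000, 19900 and 20100. Neither passed, and 1 probe gave 99.6% of the signal of F and 1 gave 99.5% of that of R.

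L30 (chr5:35975265-35982561) had letters of like signal that parted with SC1. F read 2480, 2470 and 2590 and then 2560, 2770 and 2510 (adjusted p = 0.475), and R fell 1.45-fold, from 2350, 2400 and 2500 to 1700, 1650 and 1640, on all 4 probes (adjusted p = 0.000307). F minus R changed by 0.59 (SE 0.0771, adjusted p = 0.00396).

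The measured intervals without a call whose difference was known most precisely were L31 (chr6:145647711-145756861), L29 and L32 (chr1:74084292-74138492). F minus R changed by -0.05 in L31 (95% interval -0.21 to 0.11), by 0.09 in L29 (-0.08 to 0.25) and by 0.09 in L32 (-0.07 to 0.26). In L31 F read 357, 386 and 385 and then 391, 387 and 393, and R read 251, 274 and 275 and then 284, 288 and 287; neither passed. In L32 both letters rose, F from 56.7, 58.7 and 56.7 to 68.7, 66.5 and 67.8 (adjusted p = 0.00496) and R from 193, 199 and 195 to 225, 211 and 213 (adjusted p = 0.0436), but with spike-in scaling neither passed (adjusted p = 0.445 and 0.751), and the R call was lost without any 1 of the 6 arrays (adjusted p 0.0574 to 0.119).

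Neighbouring intervals were compared next. Among the both-letter intervals, 119 pairs were adjacent with a gap under 50 kb, 31 of them overlapping. The F letter was called in both members of 11 such pairs and moved the same way in all 11. The R letter was called in both members of 16 pairs, in the same direction in 14 and in opposite directions in 2. Overlapping and adjacent intervals can report on 1 transcript and are not independent. In 30 pairs that overlapped over at least 90% of the longer interval, with probes of different names, 48 letter pairs were tested, their log2 changes had a correlation of 0.54 and differed by a median of 0.13. Of these 48, 30 had neither called, 10 had 1 called, 7 had both called the same way and 1 had opposite calls.

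The longest run, chosen after its values were seen, was 4 adjacent intervals on chromosome 12 that span 144 kb, including L7, L6 and L22. The F letter fell in all 4. In the first, chr12:110845020-110850870, F read 14.4, 16.1 and 14.3 with DMSO and 9.58, 8.35 and 8.48 with SC1, a 1.70-fold fall (adjusted p = 0.000735), and R fell 1.96-fold, from 39.3, 40.4 and 42.1 to 21.7, 21.6 and 19.0 (adjusted p = 0.000185). On F the log2 changes along the run were -0.76, -1.78, -1.50 and -1.44, and on R -0.97, -0.58, -0.21 and -1.18, the third of which did not pass. L10, farther along the same chromosome, rose on R.

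Both pairs with opposite calls on R were also looked at after their values were seen. The interval chr13:94182877-94203852 fell on R, from 37.0, 40.3 and 40.3 to 32.3, 34.3 and 33.5 (log2 -0.23, adjusted p = 0.0165), and chr13:94182877-94203935, which overlaps it almost completely, rose on R, from 412, 423 and 417 to 458, 481 and 462 (log2 0.16, adjusted p = 0.0225). Different probes of nearly the same interval thus gave small changes of opposite sign. In the other pair chr11:97457180-97487074 rose 1.82-fold on R, from 304, 298 and 291 to 533, 542 and 546 (adjusted p = 4.5e-05), and chr11:97505439-97522274 fell 1.34-fold, from 38.1, 39.0 and 39.1 to 27.3, 34.1 and 26.0 (adjusted p = 0.0227).

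The arrays differed in their place on the slide. The 3 DMSO arrays and SC1 replicate 1 were in row 1 and the other 2 SC1 arrays in row 2. With the row as a block, the SC1 change is thus that of SC1 replicate 1 against the DMSO arrays, the contrast within row 1. The median log2 change of the tested letters was 0.012 within row 1, 0.042 within column 1 and -0.026 within column 2, against 0.023 over all arrays, so its sign was not stable. Using slide column as a block, 161 letters were called (70 higher, 91 lower), and with the slide row as a block 266 letters (128 higher, 138 lower) and 32 differences (12 toward F, 20 toward R). The differences in L10, L15, L17, L19, L21, L23, L28 and L30 were among those not called with the slide row as a block (adjusted p 0.056 to 0.338).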

How the data were processed

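RNA of 3 DMSO and 3 SC1 samples was hybridised to single-colour arrays (1 sample each). Images were read with Agilent Feature Extraction 10.7, per the submitters' processing notes. The deposited files hold for each spot an intensity corrected for background and spatial trend, and median intensities of spot and local background. Per the file headers, flags mark spots well above background or outlying, and the build is mm9. A matrix of log2 values was deposited as well, whose scale and centring method is not given in the sources used here; it lay within a median of 0.04 of quantile-normalized log2 signals.

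Outlier spots (137 to 201 per array) were left out, no spot was saturated, and 11 probes of the intervals were dropped for an outlier spot. Spots of a probe, then the probes of an interval and letter, were averaged; genes, named through a RefSeq table, entered with their brightest probe. Signals were divided by the array's 75th percentile (443 to 539). A feature was tested when 1 or both groups had a probe above background on each of their 3 arrays, and the letter difference when both letters were so on all 6 arrays. Both were fitted with limma 3.58.1 in R 4.3.3 (eBayes, two-sided, Benjamini-Hochberg threshold 0.05) and checked on simulated data. Fold changes are those of the fit, except where a bound is given.

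The members, the tests, the rule for named intervals and most alternatives were chosen with earlier results of these data known. The rule, outside chromosome 18, took the 8 largest letter differences, the 5 largest rises and falls, up to 4 intervals with opposite and 3 with equal calls in each direction, up to 3 bounds each way, and the 3 brightest and 3 most precise without a call. Both settings based on the slide row were chosen after seeing the data. Figures used Python 3.11.15 and matplotlib 3.10.9.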

Additional observations from a re-analysis of the deposited data

How the results depend on the processing

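Against 476 called letters (229 higher, 247 lower) and 104 letter differences (48 toward F, 56 toward R), scaling to 8 spike-in probes gave 257 letters (96 higher, 161 lower). Normexp gave 883 letters (746 higher, 137 lower), of which 355 were shared with the 476, and 212 differences (107 toward F, 105 toward R). Its offset weighs more on the dimmer letter and, once scaled, can weigh more with SC1, so it can make such calls by itself. The slide column as a block gave 161 letters (70 higher, 91 lower) and 74 differences. Settings chosen after seeing the data were the slide row as a block, with 266 letters (128 higher, 138 lower) and 32 differences (12 toward F, 20 toward R), and the arrays of slide row 1 alone, with 217 letters (94 higher, 123 lower) and 36 differences (14 toward F, 22 toward R). In both, the SC1 change is that of SC1 replicate 1 against the 3 DMSO arrays, so they are not separate checks. In the second, the lone SC1 array is assumed to vary like the DMSO arrays.

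At an adjusted p under 0.01 there were 276 letters (119 higher, 157 lower) and 55 differences (24 toward F, 31 toward R). Averaging log2 signals gave 60 differences (28 toward R), and asking for 50% of the probes above background 50 differences among 283 intervals (23 toward F, 27 toward R). Leaving out 1 array gave 377 to 416 letters (169 to 192 higher, 204 to 228 lower) and 73 to 87 differences (29 to 40 toward F, 40 to 49 toward R); the 29 toward F came without SC1 replicate 2. Except where a construction adds an offset or leaves fewer arrays or intervals, the cause was not tested.

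With the replicate number as a block 380 letters and 75 differences were called; same-numbered arrays did not deviate together (correlations -0.01, -0.03 and -0.01), so the numbers pair nothing. Under each of the other settings tried, every one of these counts was within 1.5 times its value above. Like counts do not mean the same members. The brightest probe called 405 letters and 92 differences, of which 342 and 71 were among the 476 and 104. Averaged log2 signals called 447 letters and 60 differences, of which 351 and 44 were among them.

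Of 1389 log2 changes of named letters under the alternatives, 131 lost the call, 15 gained one, 7 turned with a call under at least 1 setting, and 1236 did none of these. Of 503 named differences, 46 lost the call, 3 gained one, 1 turned in that sense, and 453 did none of these. The 1236 and 453 include changes of sign where neither setting passed. The difference of L32, for example, was 0.09 and ran from -0.17 to 0.16. With normexp the F letter of L1 read 0.14, the R letters of L13, L15 and L26 0.07, 0.04 and 0.02, and the difference of L24 -0.23. The normexp offset shrinks the changes of dim letters and can move them upward, so these turns do not show a change of direction. With the brightest probe the R letters of L7 and L22 read 0.20 and 0.25, and with averaged log2 signals the F letter of L29 read -0.27. Signals near the lowest detectable level limit the dim letters most.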
